A study of Mus musculus with 6 samples.

Results

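Hmox1 and 42 other genes of oxidative stress defence were followed in synovial fibroblasts of mice injected intravenously with immune complexes (IC) or with vehicle. The 43 genes were found by symbol among the 24348 genes of the count table, and all 43 passed the filter on low counts. They cover haem breakdown, the Nrf2 switch and its targets, glutathione, thioredoxin, superoxide and peroxide enzymes, iron storage and the supply of NADPH. Hmox1 heads the set because it was chosen by its own counts in this same comparison, so its values are given as a description without a test. The other 42 were chosen by function, with results of these libraries already known.

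The mice were adult wild-type C57BL/6 animals (C57BL/6J background in the study's methods), and both sexes were used in the study. IC were ovalbumin bound by rabbit polyclonal anti-ovalbumin antibodies, and the control mice received vehicle. Whole knee synovium was digested with collagenase and fibroblasts were sorted by flow cytometry, giving 3 IC and 3 vehicle libraries of total RNA. The comparison addresses whether fibroblasts respond secondarily when circulating IC reach the joint. The time between injection and sorting of the fibroblasts and the markers of the sorting gate are not given in the sources used here. The labels do not say that the 3 libraries of a group came from separate mice, so every p-value measures the spread between these libraries, which may be partly technical.

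Haem oxygenase 1, encoded by Hmox1, opens the haem ring and releases iron, carbon monoxide and biliverdin, which biliverdin reductases turn into bilirubin. Its gene is kept low by the repressor Bach1 and is raised by the transcription factor Nrf2, encoded by Nfe2l2, which its partner Keap1 sends for degradation until oxidants or electrophiles modify Keap1. Nrf2 binds antioxidant response elements with small Maf proteins and drives genes that make glutathione, reduce thioredoxin, detoxify quinones, hold iron in ferritin and regenerate NADPH. In the joint, fibroblasts line the synovial cavity and secrete its lubricants and matrix.

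To show what Nrf2 recognises, letters of the antioxidant response element were sought in the promoter windows of the members. A window runs from 250 bases before to 50 bases after a gene's start (RefSeq, GRCm38.p6), and 36 of the 43 members had one. No window was searched for Hmox1, Gsta4, Gclc, Gsr, Prdx6, Sod3 and Slc40a1. The element was written TGACNNNGC and sought on both strands. It was present in 11 of these 36 members, namely Blvra, G6pdx, Gclm, Me1, Mgst1, Nfe2l2, Pgd, Prdx1, Sod1, Srxn1 and Txnrd1, and in 13.991% of the 27025 genes with a window. Among the 12282 genes with a window whose counts were tested, as those of all members were, the share was 16.593%. The AP-1 letters TGANTCA were in 5 members, Gstp1, Me1, Osgin1, Prdx1 and Srxn1, and in 8.973% of all genes, while the E-box CACGTG was in 1 member, Prdx4, and in 8.093%. Among the tested genes with a window the shares were 6.595% for AP-1 and 10.959% for the E-box. The antioxidant response element contains the AP-1 letters at Prdx1 and Me1, so these matches are counted under both. Sites of 6 members are printed 5′ to 3′ on the gene's strand with the matching letters in capitals, because Gclm and Pgd were the members with these letters whose fold changes stood farthest above 0, Osgin1 was one of the members with lower counts, and Prdx1, Me1 and Txnrd1 are well known Nrf2 targets. The first base of the match lies 134 bases before the start for Gclm, 133 for Prdx1, 92 for Txnrd1, 6 for Me1 and 97 for Osgin1, and 3 bases after it for Pgd.
Gclm, antioxidant response element, chr3:122245413-122245441, plus strand: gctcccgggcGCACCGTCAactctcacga
Pgd, antioxidant response element, chr4:149166061-149166089, minus strand: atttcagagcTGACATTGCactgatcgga
Prdx1, antioxidant response element, chr4:116685456-116685484, plus strand: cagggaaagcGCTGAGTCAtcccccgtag
Txnrd1, antioxidant response element, chr10:82859104-82859132, plus strand: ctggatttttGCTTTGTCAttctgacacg
Me1, antioxidant response element, chr9:86695902-86695930, minus strand: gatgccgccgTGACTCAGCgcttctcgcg
Osgin1, AP-1, chr8:119437040-119437066, plus strand: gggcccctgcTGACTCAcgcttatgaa

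The libraries held between 40114331 and 56714304 counts. Of 19925 genes tested with DESeq2, 419 (2.10%) passed an adjusted p of 0.05, of which 205 had more and 214 fewer counts after IC, and edgeR's quasi-likelihood test called 37 (0.186%). All 10 fibroblast markers were measured, with summed levels of 44900 to 46600 CPM (counts scaled to the library's total) after IC and 45760 to 55610 in vehicle; Prg4, the lubricin gene, was called higher and the matrix genes Col3a1 and Lum lower. Of 15 macrophage markers 8 were in the table and 4 were tested, summing to 31.9 to 49.1 CPM after IC and 39.0 to 50.7 in vehicle, and none was called. Adgre1, C1qa, Cd163, Ptprc, Tyrobp, Vsig4 and Timd4 were not in the table, so their levels could not be judged. Erythroid markers, 4 of 7 in the table, summed to 2.23 to 2.83 CPM after IC and 0.897 to 2.52 in vehicle, neutrophil markers, 3 of 7 in the table, to 0.344 to 0.852 and 0.423 to 0.556, and adipocyte markers, 6 of 7, to 2.04 to 3.86 and 2.09 to 4.69. Endothelial markers, 9 of 9 tested, summed to 196.9 to 265.0 CPM after IC and 270.7 to 315.8 in vehicle, with Kdr and Cdh5 called lower. Much of these sums was Tek alone, at 120.4 to 139.5 CPM after IC and 134.9 to 141.4 in vehicle, with overlapping groups. Skeletal muscle markers, 12 of 12 in the table, summed to 15.7 to 31.5 CPM after IC and 27.8 to 74.3 in vehicle, with Myh1 and Actn3 called lower. Immediate early genes, listed as markers of tissue handling and 10 of 10 tested, summed to 27580 to 27910 CPM after IC and 25030 to 26470 in vehicle, with Fosb and Nr4a1 called higher. Whether handling or IC set their level was not tested.

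Hmox1 (mm10, chr8:75093621-75100589, plus strand), chosen by its own counts in this comparison, stood 1.58-fold higher after IC. It had 3818, 3991 and 4133 normalized counts (counts divided by DESeq2's size factors) in the IC libraries and 2767, 2807 and 1986 in the vehicle libraries. Of the other 42 members 35 (83.3%) lay within 0.25 of 0 on the log2 scale, beside 78.7% of genes with a mean of at least 100 normalized counts. For Hmox1 the groups did not overlap. The lowest IC library lay above the highest vehicle library, and vehicle replicate 3 lay below the other vehicle libraries. The log2 fold change was 0.66 (SE 0.13, 3 against 3 libraries), and it ranged from 0.51 without vehicle replicate 3 to 0.74 without vehicle replicate 2. With the endothelial marker score as a further term it was 0.59, and with the skeletal muscle score 0.94. The summed immediate early genes were also higher in every IC library than in any vehicle library. Taken singly, only Fosb, Atf3 and Nr4a1 had groups that did not overlap, at log2 fold changes of 0.28, 0.12 and 0.27. The others overlapped, with Jun at −0.06 and Egr1 at −0.07. The part of these genes in the Hmox1 result was not tested. In bulk RNA, fewer cells of a type and less RNA per cell cannot be told apart, here and for every gene that follows.

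The other members of haem breakdown did not pass the test. Hmox2, the haem oxygenase that cells make without induction, had 720.7, 790.7 and 847.7 normalized counts after IC and 753.5, 1022 and 924.1 in vehicle, a log2 fold change of −0.19 (SE 0.16). The ratio of Hmox1 to Hmox2 per exon length was 6.71, 6.39 and 6.17 in the IC libraries and 4.65, 3.48 and 2.72 in the vehicle libraries. These ratios did not overlap, but Hmox1 was chosen by its counts in these same libraries, so they partly restate that choice. Cdip1 on the other strand also covers 40.2% of the exons of Hmox2, whose counts are therefore uncertain. The biliverdin reductases Blvra and Blvrb had log2 fold changes of 0.17 (SE 0.20) and 0.21 (SE 0.15), and the libraries of the 2 groups overlapped for both.

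**Figure D1:**
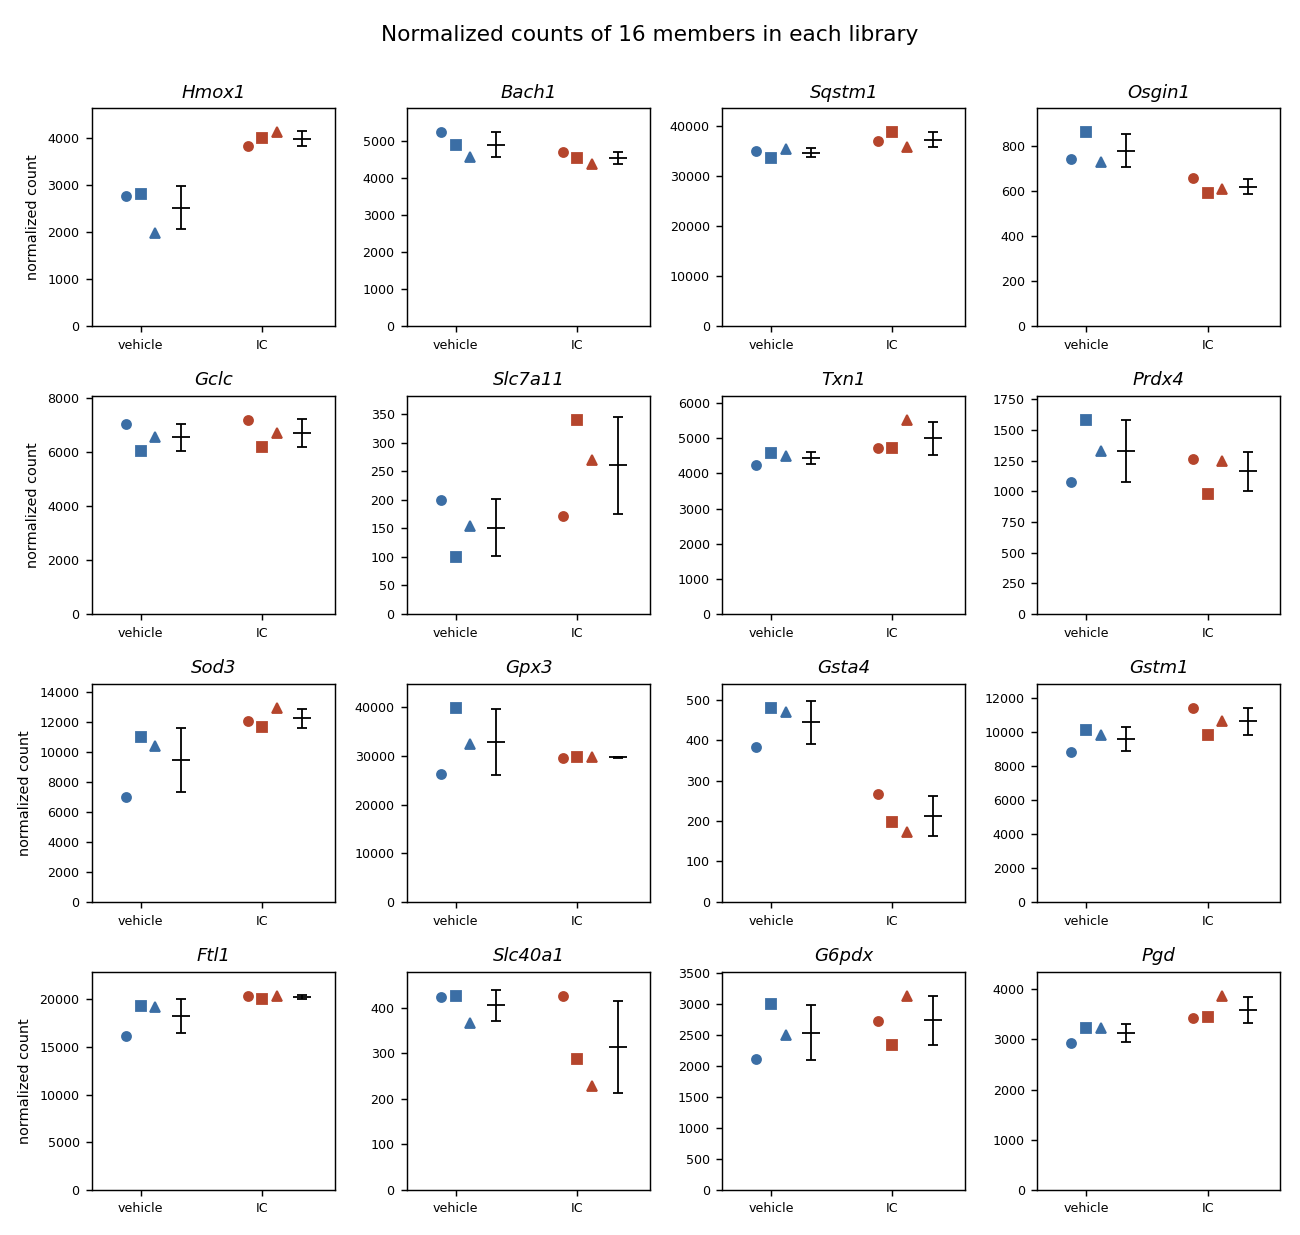
Normalized counts (vertical axes, from 0, a separate scale in each panel) of 16 members in the 3 vehicle and 3 IC libraries. Circles, squares and triangles are replicates 1, 2 and 3 of a group, which were not treated as pairs. The bar beside them is the mean ± SD. Hmox1 sat at 3818 to 4133 after IC and 1986 to 2807 in vehicle, Gsta4 at 172.9 to 266.7 and 383.7 to 480.8, and the groups overlap for Bach1, Gclc, Slc7a11, Prdx4, Gpx3, Gstm1, Slc40a1 and G6pdx.

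Among the 42 members other than Hmox1, 0 were called higher and 1, Gsta4, was called lower by DESeq2 at an adjusted p under 0.05. This is 2.38% of the members, beside 2.10% of all genes tested. With edgeR 0 of 42 were called, beside 0.186% of all genes. At an unadjusted DESeq2 p under 0.05 there were 6 of 42 (14.3%), beside 9.80% of all genes. Among the 13435 genes with a mean of at least 100 normalized counts, a level that all members reached, there were 1692, a larger share than among all genes. The 6 were Slc7a11, Gclm, Sod3 and Pgd with higher and Gsta4 and Osgin1 with lower counts. The 3 IC libraries all lay above the 3 vehicle libraries for 6 of 42 members (14.3%), beside 8.09% of all genes, and all below them for 3 of 42 (7.14%), beside 7.67%. The former were Sqstm1, Gclm, Txn1, Sod3, Ftl1 and Pgd, and the latter Nqo1, Osgin1 and Gsta4. Since the members were listed with these results known, the counts describe the set and test nothing about it.

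The median log2 fold change of the 42 was 0.09, beside −0.00 (−0.0019) over all genes tested, with 26 (61.9%) above 0 and 16 below. Of all genes tested 49.59% lay above 0. Gsta4 at −1.07 and Slc7a11 at 0.79 had the largest values in either direction. For 35 of the 42 (83.3%) the log2 fold change lay within 0.25 of 0, as it did for 78.7% of the 13435 genes with a mean of at least 100 normalized counts. The 95% interval of the log2 fold change lay wholly within 0.5 of 0 for 30 of 42. The standard errors ran from 0.07 for Sqstm1 to 0.33 for Slc7a11.

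**Figure D2:**
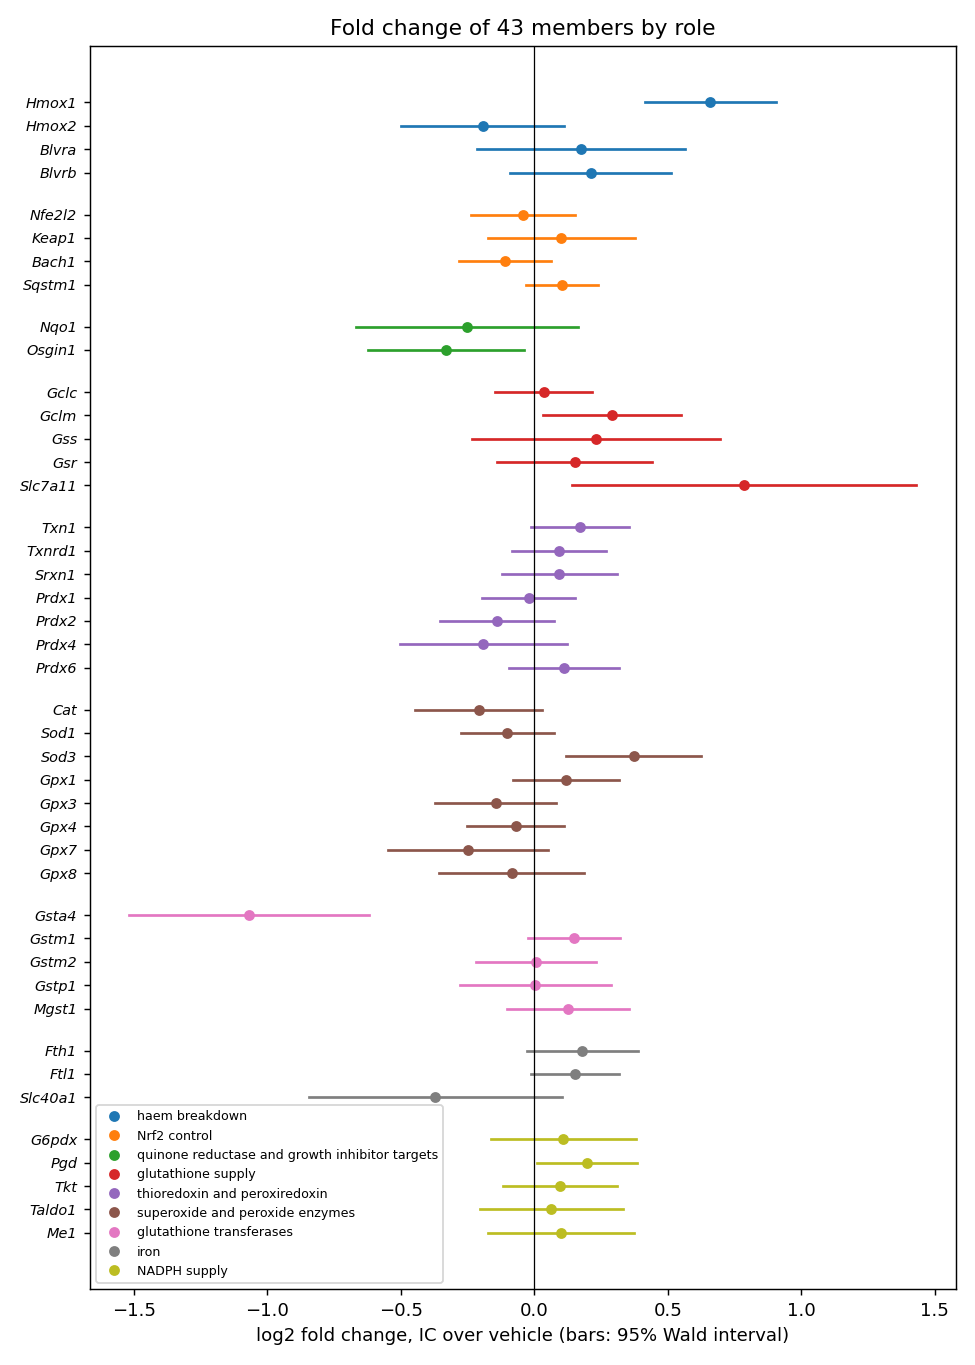
Log2 fold change of IC over vehicle (horizontal axis) for the 43 members, with 95% Wald intervals from DESeq2 and colours for the 9 role groups. Hmox1 at 0.66, chosen by its own counts, and Gsta4 at −1.07 stand apart from most members. Of the 42 other than Hmox1, 35 lie within 0.25 of 0 (83.3%, beside 78.7% of genes with a mean of at least 100 normalized counts). Slc7a11 at 0.79 has the widest interval.

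The transcripts of the Nrf2 switch differed little between the groups, and the amount and activity of Nrf2 protein were not measured. Nfe2l2, which encodes Nrf2, and Keap1 had log2 fold changes of −0.04 (SE 0.10) and 0.10 (SE 0.14). Bach1, the repressor of Hmox1, had 4695, 4543 and 4369 normalized counts after IC and 5242, 4881 and 4563 in vehicle, a log2 fold change of −0.11 (SE 0.09) with overlapping groups. Sqstm1, the autophagy receptor p62 that binds Keap1, had 36860, 38790 and 35810 after IC and 34830, 33530 and 35340 in vehicle. Its groups did not overlap, but the log2 fold change was 0.10 (SE 0.07; DESeq2 adjusted p = 0.65) and Mrnip on the other strand covers 17.3% of its exons. The 95% intervals of all 4 genes lay within 0.5 of 0 on the log2 scale.

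Both members of the quinone reductase and growth inhibitor group had lower values after IC, and neither passed the test. Nqo1, which reduces quinones, had 249.1 to 310.1 normalized counts after IC and 316.1 to 385.4 in vehicle, a log2 fold change of −0.25 (SE 0.21; DESeq2 adjusted p = 0.78). Osgin1, an oxidative stress induced growth inhibitor, had 655.7, 592.2 and 608.5 after IC and 740.4, 863.4 and 730.8 in vehicle. All 3 IC libraries lay below all vehicle libraries for Osgin1, by −0.33 on the log2 scale (SE 0.15; DESeq2 adjusted p = 0.32).

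All 5 members of glutathione supply had a log2 fold change above 0, from 0.03 to 0.79 with a median of 0.23, and none passed the test. Slc7a11, the cystine carrier that feeds glutathione synthesis, had 170.8, 340.1 and 269.7 normalized counts after IC and 199.2, 100.1 and 153.2 in vehicle. IC replicate 1 lay below vehicle replicate 1, so the groups overlapped, and the log2 fold change of 0.79 (SE 0.33; DESeq2 adjusted p = 0.25) ranged from 0.55 (IC replicate 2 left out) to 1.04 (vehicle replicate 1 left out). Glutamate-cysteine ligase makes the first bond of glutathione from a catalytic subunit, Gclc, and a modifier subunit, Gclm. Gclc had 7199, 6176 and 6720 normalized counts after IC and 7036, 6040 and 6542 in vehicle, and Gclm had 1412, 1682 and 1449 against 1370, 1082 and 1262. The groups overlapped for Gclc, at a log2 fold change of 0.03 (SE 0.09), and stood just apart for Gclm, at 0.29 (SE 0.13, DESeq2 adjusted p = 0.33). With IC replicate 1 left out the value of Gclc was −0.0212. Glutathione synthetase, Gss, and glutathione reductase, Gsr, had log2 fold changes of 0.23 (SE 0.24) and 0.15 (SE 0.15), with overlapping groups.

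The 7 thioredoxin and peroxiredoxin members had log2 fold changes from −0.19 to 0.17 and none passed the test. Txn1, cytosolic thioredoxin, had 4734, 4726 and 5533 normalized counts after IC and 4251, 4577 and 4489 in vehicle, so that its groups did not overlap (log2 fold change 0.17, SE 0.09, DESeq2 adjusted p = 0.50). Prdx4, a peroxiredoxin of the endoplasmic reticulum, had 1267, 978.8 and 1245 after IC and 1075, 1584 and 1327 in vehicle, with a log2 fold change of −0.19 (SE 0.16) and vehicle replicate 2 the highest of the 6 libraries. Leaving out vehicle replicate 2 gave −0.04 and leaving out vehicle replicate 1 gave −0.32. Thioredoxin reductase, Txnrd1, and sulfiredoxin, Srxn1, which repairs overoxidised peroxiredoxins, each had a log2 fold change of 0.09. Prdx1, Prdx2 and Prdx6, which remove peroxides, had −0.02, −0.14 and 0.11. Counts of Txn1 and Prdx2 may be shared with processed copies of the same name in the table.

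Of the 8 superoxide and peroxide enzymes 0 were called, 2 had a log2 fold change above 0 and 6 below. Sod3, the secreted superoxide dismutase, had 12100, 11690 and 12970 normalized counts after IC and 7010, 11020 and 10380 in vehicle. The groups did not overlap, though vehicle replicate 1 stood far below the other vehicle libraries, and the log2 fold change was 0.37 (SE 0.13; DESeq2 adjusted p = 0.11). Without vehicle replicate 2 the DESeq2 adjusted p of Sod3 was 0.038, and without IC replicate 3 it was 0.44. Leaving out vehicle replicate 1 lowered the log2 fold change to 0.19. Gpx3, the secreted glutathione peroxidase, had 29670, 29840 and 29770 after IC and 26310, 39940 and 32480 in vehicle. The IC libraries lay inside the vehicle range, at a log2 fold change of −0.15 (SE 0.11), which was −0.28 with a DESeq2 adjusted p of 0.043 without vehicle replicate 1 and 0.02 without vehicle replicate 2. Catalase, Cat, had −0.21 (SE 0.12), cytosolic Sod1 −0.10, Gpx1 0.12, the lipid peroxide reductase Gpx4 −0.07, and Gpx7 and Gpx8 of the endoplasmic reticulum −0.25 and −0.08, all with overlapping groups.

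Gsta4 (mm10, chr9:78182774-78209349, plus strand), a glutathione transferase that conjugates the lipid peroxidation product 4-hydroxynonenal, was the member that fell. It had 266.7, 197.4 and 172.9 normalized counts after IC and 383.7, 480.8 and 469.3 in vehicle, so the highest IC library lay below the lowest vehicle library. The log2 fold change was −1.07 (SE 0.23), or 0.477 of the vehicle level, and the DESeq2 adjusted p was 0.000525, against 0.072 with edgeR's quasi-likelihood test. The DESeq2 call held in 6 of 6 fits that each left out 1 library, with log2 fold changes from −1.26 to −0.94. The summed endothelial markers were also lower in every IC library than in any vehicle library, and the skeletal muscle markers lower with overlapping ranges. With the endothelial score as a further term the log2 fold change of Gsta4 was −0.94 (DESeq2 adjusted p = 0.15), and with the skeletal muscle score it was −0.87 (adjusted p = 0.9999). The fit with the skeletal muscle score called 0 members other than Hmox1. Its DESeq2 adjusted p was 0.9999 for Sod3, Gstm1 and Pgd as well, but these were not called without the score either. Txnip, a gene of the same pathways outside the set, kept its call in that fit (DESeq2 adjusted p = 0.019). Why the call of Gsta4 was lost was not tested.

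The other 4 glutathione transferases were not called. Gstm1 had 11460, 9854 and 10660 normalized counts after IC and 8813, 10160 and 9869 in vehicle, a log2 fold change of 0.15 (SE 0.09) with overlapping groups. The ratio of Gsta4 to Gstm1 per exon length was 0.027, 0.023 and 0.019 in the IC libraries and 0.051, 0.055 and 0.055 in the vehicle libraries. Gstm2, Gstp1 and the microsomal Mgst1 had log2 fold changes of 0.01, 0.00 (0.0042) and 0.12. Gstm2 and Gstp1 have near copies in the table, so their counts are uncertain.

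The iron genes and the NADPH enzymes were not called. Ftl1, the light chain of ferritin, had 20360, 20010 and 20390 normalized counts after IC and 16160, 19290 and 19210 in vehicle. Its groups did not overlap, with vehicle replicate 1 lowest, at a log2 fold change of 0.15 (SE 0.08; DESeq2 adjusted p = 0.50), and the heavy chain Fth1 had 0.18 (SE 0.11) with overlapping groups. Both ferritin genes have processed copies, and Gm10252 on the other strand covers 26.5% of the exons of Ftl1. Slc40a1, the iron exporter ferroportin, had 425.3, 288.4 and 228.5 after IC and 423.1, 427.0 and 366.0 in vehicle. IC replicate 1 lay among the vehicle libraries and the other IC libraries lay below them, a log2 fold change of −0.37 (SE 0.24). This value was −0.65 with IC replicate 1 left out, −0.19 with IC replicate 3 left out and 0.08 with the skeletal muscle score as a further term. All 5 NADPH enzymes had values above 0, from 0.06 for Taldo1 to 0.20 for Pgd. Pgd, the second dehydrogenase of the pentose phosphate pathway, had 3425, 3444 and 3876 after IC and 2921, 3231 and 3225 in vehicle, which did not overlap (log2 fold change 0.20, SE 0.10, DESeq2 adjusted p = 0.39). G6pdx, the first dehydrogenase of that pathway, had 2729, 2337 and 3133 after IC and 2113, 2995 and 2500 in vehicle, which overlapped (0.11, SE 0.14). The log2 fold change of G6pdx was −0.0092 with vehicle replicate 1 left out and −0.20 with the endothelial score as a further term. Transketolase, Tkt, and malic enzyme, Me1, each had 0.10.

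**Figure D3:**
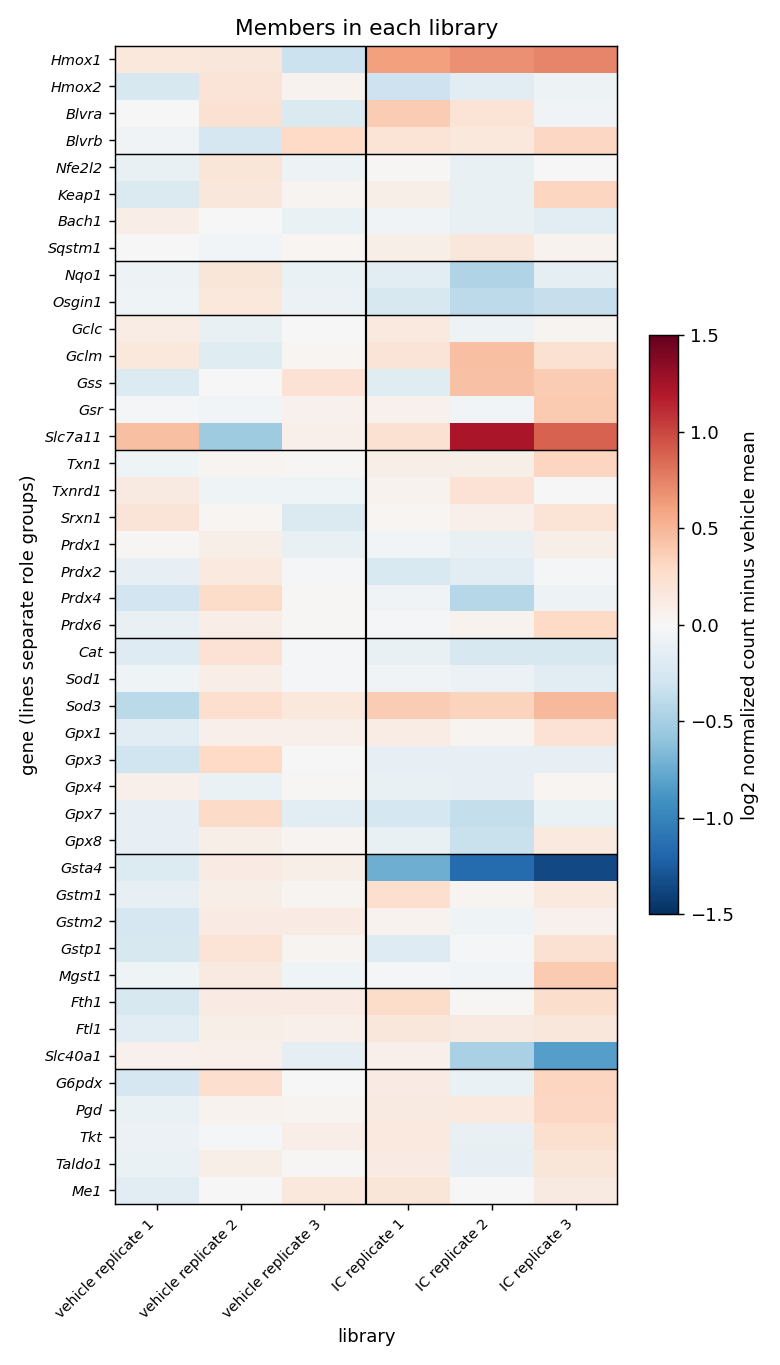
Log2 normalized count of each of the 43 members (rows, lines between role groups) in each library (columns), minus its mean over the vehicle libraries; red is above and blue below that mean. Hmox1 is above it in all 3 IC libraries, by 0.62 to 0.73, and Gsta4 is below it in all 3.

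The libraries differed from each other in ways shared by several members. IC replicate 3 had the highest value of the 6 libraries for 18 of the 43 members, vehicle replicate 2 for 13, and vehicle replicate 1 the lowest for 16. Members varied within groups about as much as other genes did, with a median SD of 0.16 on the log2 scale beside 0.15 for the 13435 genes with a mean of at least 100 normalized counts. Sqstm1 varied least (0.05) and Slc7a11 most (0.50).

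The 11 members with letters of the antioxidant response element had a median log2 fold change of 0.10 (range −0.10 to 0.29). The 25 with a window but without them had 0.01 (range −0.33 to 0.79). Elements outside the window were not sought, so members of the second set may have them elsewhere. Hmox1 and Gsta4 are in neither set. Of the printed sites, that of Gclm belonged to a gene at 0.29, Pgd at 0.20, Me1 at 0.10, Txnrd1 at 0.09, Prdx1 at −0.02 and Osgin1 at −0.33 on the log2 scale. A match of letters does not show that a factor was bound, and the members were chosen for functions that overlap those of Nrf2.

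The defence genes spanned a wide range of levels in vehicle fibroblasts. Per exon length, Gpx3 stood highest, at 1612 ± 308 TPM (a share of all length-scaled counts; SD, n = 3), followed by Ftl1 at 1209 ± 97.3, Sqstm1 at 917 ± 35.5 and Gstm1 at 580 ± 32.2. Hmox1 ranked 17th of 43 at 128 ± 24.3 TPM, and stood at 205 ± 6.95 TPM after IC. Gss, Slc40a1 and Slc7a11, at 4.33, 4.01 and 0.968 TPM, were the members below 10, and 18 of 43 lay above 100. Of the 42 neighbouring pairs in this order, 10 had vehicle libraries that did not overlap and 32 overlapped, so most neighbours cannot be ranked. Together the 43 genes held 0.825% of all TPM in vehicle and 0.873% after IC.

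**Figure D4:**
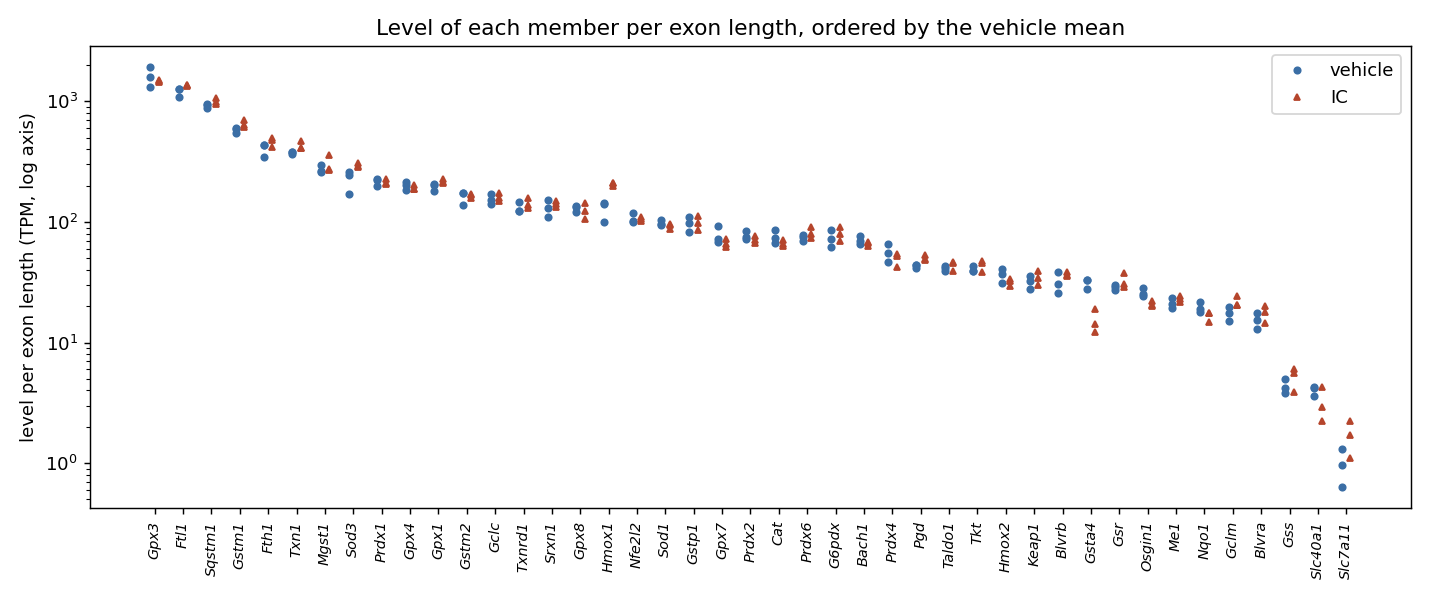
Level per exon length in TPM (vertical log axis) of the 43 members in the 3 vehicle (blue circles) and 3 IC (red triangles) libraries, in the order of the vehicle mean. Levels run from 1612 TPM for Gpx3 to 0.968 TPM for Slc7a11, and the triangles stand clear of the circles above for Hmox1 and below for Gsta4. Other members also stand clear, among them Sod3 above and Osgin1 below.

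Other genes of the same pathways were listed by function, 91 in all, of which 87 were in the table and 83 were tested. DESeq2 called 2 of them higher and 3 lower, 5 of 83 (6.02%), beside 2.10% of all genes, and edgeR called 1, Txnip. Among the 13435 genes with a mean of at least 100 normalized counts DESeq2 called 199 higher and 198 lower, a larger share than among all genes. Txnip, which binds and inhibits thioredoxin and limits glucose uptake, had 24970, 25680 and 25350 normalized counts after IC and 37750, 44410 and 38270 in vehicle. It fell in all libraries without overlap, by −0.66 on the log2 scale (SE 0.08; adjusted p = 3.81e-13 by DESeq2 and 0.014 by edgeR), and was called in 6 of 6 fits without 1 library. Mafg, a small Maf partner of both Nrf2 and Bach1, had 5798, 7138 and 6072 after IC and 4620, 4646 and 4809 in vehicle, a log2 fold change of 0.43 (SE 0.10; adjusted p = 0.000714 by DESeq2 and 0.084 by edgeR). Like Txnip it was called by DESeq2 in 6 of 6 fits without 1 library.

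Nox4, an NADPH oxidase that makes hydrogen peroxide, rose from 2246, 2477 and 2327 normalized counts in vehicle to 3169, 3238 and 2779 after IC (log2 fold change 0.38, SE 0.10, DESeq2 adjusted p = 0.011). The call held in 3 of 6 fits without 1 library, and was lost when either of IC replicates 1 and 2 or vehicle replicate 3 was left out, with a DESeq2 adjusted p of up to 0.13; under the replicate block it was 0.051. Sesn3, a sestrin that restrains growth signalling under stress, fell from 3974, 5492 and 4917 to 3587, 3165 and 3192 (−0.53, SE 0.12, DESeq2 adjusted p = 0.00082), and the call held in 6 of 6. Steap3, a metalloreductase that reduces iron released from transferrin, fell from 14830, 18360 and 19020 to 13400, 12570 and 14650 (−0.36, SE 0.10, DESeq2 adjusted p = 0.018), held in 2 of 6 and was lost on leaving out IC replicates 1 or 2 or vehicle replicates 2 or 3, with an adjusted p of up to 0.29. With edgeR the adjusted p was 0.11 for Nox4, 0.087 for Sesn3 and 0.21 for Steap3. With 1 surrogate variable Steap3 lost its call (DESeq2 adjusted p = 0.11) and the other 4 kept theirs. With the endothelial score as a further term all 5 kept their calls. With the skeletal muscle score Txnip kept its call (log2 fold change −0.55, DESeq2 adjusted p = 0.019). Mafg at 0.41, Nox4 at 0.51, Sesn3 at −0.42 and Steap3 at −0.49 were not called in that fit. Nox4 and Steap3 lost their calls although they lay farther from 0 than without the score. The remaining 78 genes were not called, and the median log2 fold change of the 83 was −0.00 (−0.0042), with 40 above 0 and 43 below.

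**Figure D5:**
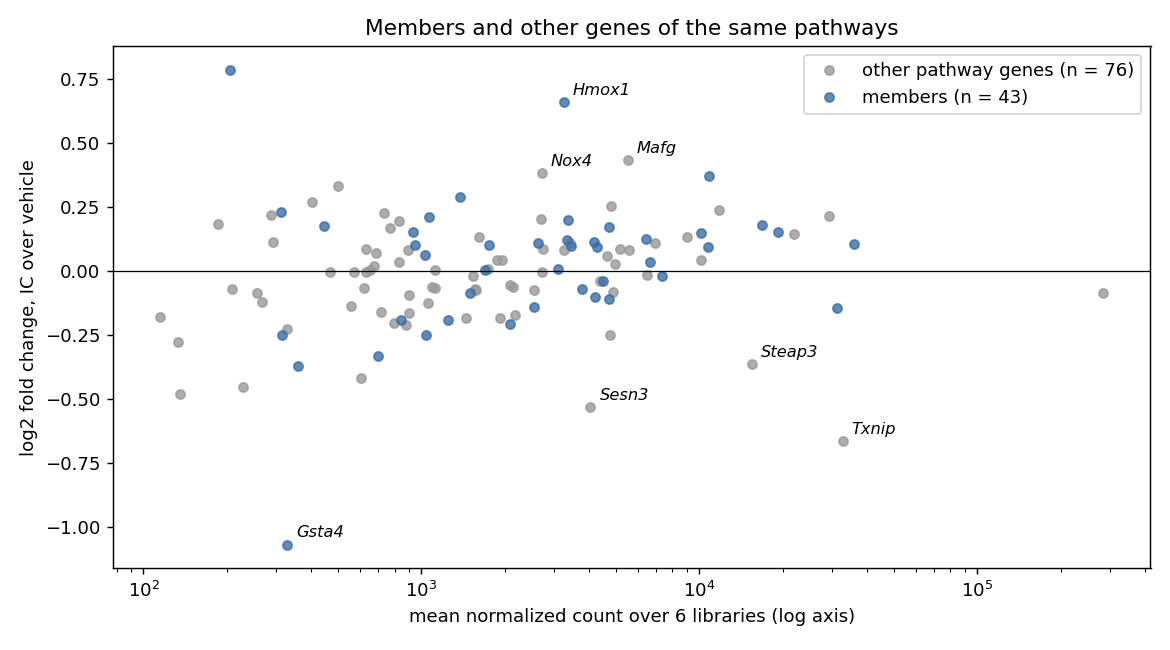
Log2 fold change of IC over vehicle (vertical axis) against the mean normalized count over the 6 libraries (horizontal log axis) for the 43 members (blue) and the 76 other pathway genes with a mean of at least 100 (grey). Hmox1 at 0.66 and the genes called by DESeq2 are named, among them Gsta4 at −1.07 and Txnip at −0.66, and most points of both colours lie near 0.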

How the data were processed

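The authors trimmed reads with Trim Galore, checked them with FastQC, aligned them to mm10 with HISAT2 and counted reads per gene with featureCounts; versions and strand setting are not given in the sources used here. The deposited values are raw counts per gene symbol in 6 libraries, and the table's columns equal the 6 single-library files. The labels name a stranded ribosomal-depletion kit and the study's methods another stranded total RNA kit. The study's methods mention batch removal with sva without details, and the deposited counts show whole numbers only.

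Tested genes reached 10 counts in 3 or more libraries. The test was that of DESeq2 1.42.0 (R 4.3.3; Wald test, treatment as the only term) with Benjamini-Hochberg adjustment over all genes; 3870 had no adjusted p after independent filtering. edgeR 4.0.16 and sva 3.50.0 gave alternatives. Steps were tested on simulated data. Fold changes are IC over vehicle, unshrunken. TPM used exon lengths of GENCODE M21, matched by symbol for 23890 genes (98.1%). Intervals are 95% Wald.

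No pairing by replicate number is labelled, so the main fit has no block. The members and lists were chosen with earlier results of these data known. Values per library are given for Hmox1, for members called, for the member with the largest absolute log2 fold change (mean of at least 100 normalized counts) and that with the highest level in each of 9 role groups, and for the other pathway genes called; Hmox2, Gclm and Nqo1 were added after their values were seen. Motif letters were also chosen after results were known.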

Additional observations from a re-analysis of the deposited data

How the results depend on the processing

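Of 42 members other than Hmox1, DESeq2 called 1 (Gsta4); edgeR called 0, a fit with 1 surrogate variable 2 (Gsta4 and Sod3), fits with the skeletal muscle or endothelial score (chosen after seeing the data) 0 each, and fits without 1 library 1 to 2. The second was Gpx3 without vehicle replicate 1 and Sod3 without vehicle replicate 2. Of 83 other pathway genes DESeq2 called 5; edgeR called 1, a fit with 1 surrogate variable 4, one with the endothelial score 5 and one with the skeletal muscle score 1, and fits without 1 library called 3 to 9, with 3 without IC replicate 2 or vehicle replicate 3 and 9 without vehicle replicate 1. The log2 fold change of Hmox1 was 0.94 with the skeletal muscle score and 0.51 to 0.74 without 1 library.

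Some log2 fold changes that were not called changed sign: Bach1 (0.0018) and Slc40a1 (from −0.37 to 0.0767) with the skeletal muscle score, Gclc (−0.011) and Gpx3 (0.0044) with 1 surrogate variable, and G6pdx (−0.20) with the endothelial score. Without 1 library the log2 fold change ran from −0.0212 to 0.0894 for Gclc, from −0.2844 to 0.0193 for Gpx3 and from −0.0092 to 0.2475 for G6pdx. The causes were not tested.

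Same-numbered libraries did not deviate together (r = −0.166, −0.155 and −0.00823 over 15131 genes). From so few libraries this cannot exclude a shared batch, and none is labelled. Under the replicate block DESeq2 called 1 member other than Hmox1 (Gsta4) and 4 other pathway genes. The counts under TMM, total-count scaling, no count filter and no independent filtering stayed within 1.5 times those reported. With 3 libraries a group, low counts such as those of Slc7a11 limit what can be resolved.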
